A study of Homo sapiens with 6 samples.

Results

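E-cadherin, its junction partners, EPCAM, the epithelial splicing factors and the SNAI and ZEB repressors are described here in SW480, an established cell line from a human colon adenocarcinoma. The 10 genes CDH1, CDH3, CTNNA1, CTNND1, EPCAM, ESRP1, ESRP2, SNAI1, SNAI2 and ZEB1 were taken by symbol from a deposited table of 20289 genes. All 10 had enough reads to be tested, among 12920 tested genes. The study asked which transcripts change when the microprotein MUCP1 is raised. Its 3 control libraries, LV-NC, carry the genotype label WT and the treatment label None / LV-NC. Its other 3 libraries, MUCP1-FLAG, are labelled MUCP1-Flag overexpression for both genotype and treatment. Serum-supplemented L-15 was the medium of both groups. Libraries of 1 group are labelled as biological replicates, with no clone, passage, promoter or batch named, so the p-values measure the spread between these libraries. No row of the table is named MUCP1, and its level was not analysed here. Total counts were 17333329 to 23282604 per library.

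E-cadherin, the product of CDH1, joins neighbouring epithelial cells through its outer domains. Its inner tail holds the catenin encoded by CTNND1, which keeps cadherin at the membrane, and beta-catenin, which bridges to alpha-catenin (CTNNA1) and actin. The zinc finger factors of the SNAI and ZEB families bind E-box sequences in promoters such as that of CDH1 and repress them. ESRP1 and ESRP2 bind RNA and set the epithelial splice forms of genes such as FGFR2, CD44 and CTNND1. In carcinoma cells, loss of E-cadherin and the ESRP factors and gain of these repressors are classic marks of a shift from the epithelial to the mesenchymal state.

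In MUCP1-FLAG cells 5 of the 10 genes fell: CDH1 2.09-fold, CDH3 1.87-fold, ESRP1 1.85-fold, EPCAM 1.25-fold and SNAI2 1.22-fold. None of the 10 rose in the edgeR quasi-likelihood test with Benjamini-Hochberg adjustment over all tested genes, also none with DESeq2 and none at an unadjusted p under 0.05. Over all 12920 tested genes 7.71% were lower and 8.35% higher at an adjusted p under 0.05. The median log2 fold change of the 10 genes was −0.19, beside 0.00 over all tested genes. The repressors ZEB1 and SNAI1, the splicing factor ESRP2 and the catenins CTNNA1 and CTNND1 did not pass the test. In bulk RNA, fewer cells with a transcript and less of it per cell cannot be told apart. Levels are given in CPM, a gene's reads scaled to a common library total after TMM normalization. Errors of log2 fold changes are standard errors, and errors of levels are SD over 3 libraries.

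**Figure D1:**
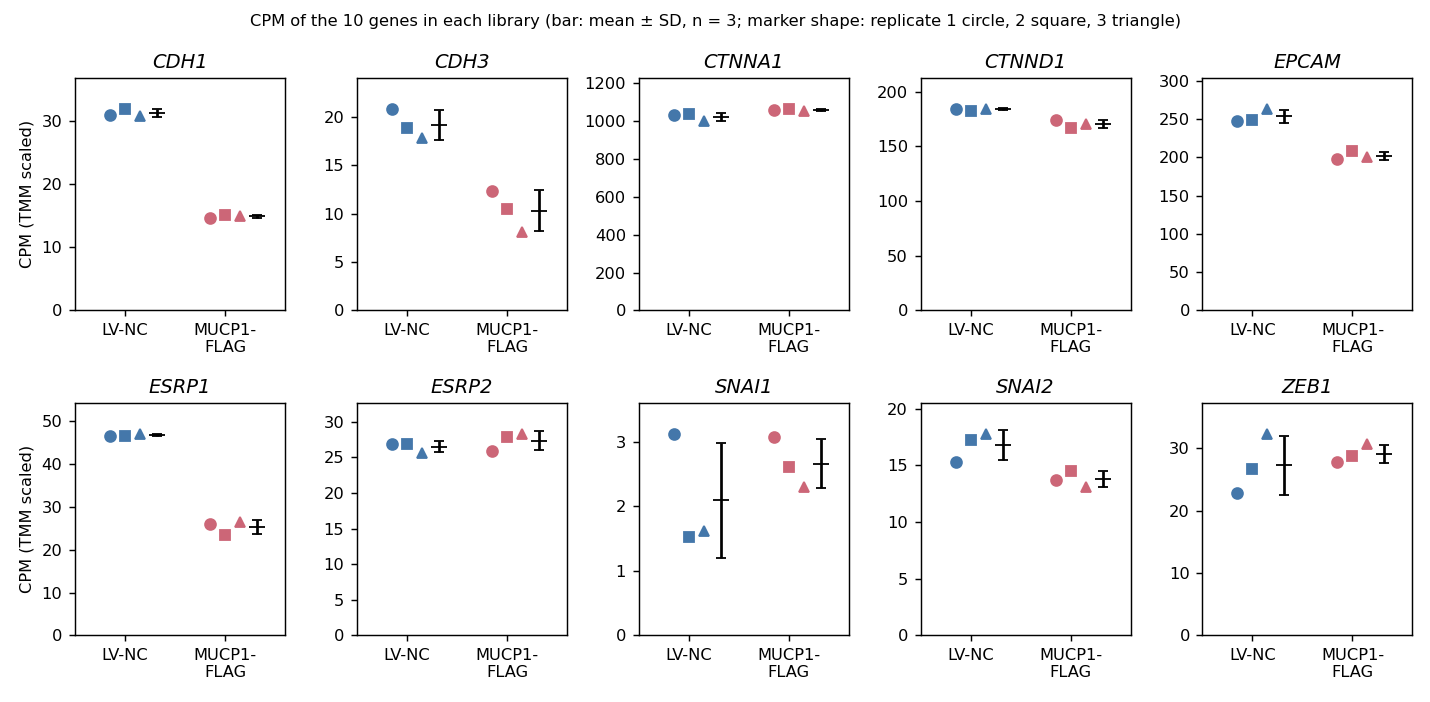
Each panel plots 1 gene: the vertical axis is CPM from 0, the points are single libraries (replicate 1 circle, 2 square, 3 triangle) and the bars are mean ± SD of 3 libraries. CDH1, CDH3, EPCAM and ESRP1 stand apart between the groups, as do CTNNA1, CTNND1 and SNAI2 by smaller gaps, while ESRP2, SNAI1 and ZEB1 overlap. Groups did not overlap for 33.1% of all tested genes.

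CDH1 was measured at 30.9, 31.9 and 30.7 CPM in LV-NC and at 14.7, 15.1 and 14.9 CPM in MUCP1-FLAG. The groups lay far apart and each was tight. The change on the log2 scale was −1.06 ± 0.08 (edgeR adjusted p 3.26e-09, n = 3 per group). By the size of its fall CDH1 took place 92 of the 12920 tested genes, counted from the most negative fold change. On GRCh38 the gene (ENSG00000039068) lies on chromosome 16 at 68737225 to 68835548, on the + strand, with 20 merged exons in GENCODE 29.

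CDH3 encodes P-cadherin, the placental cadherin of basal epithelia, and lies 14608 bases upstream of CDH1 in the same direction (ENSG00000062038, 68636189 to 68722616). It was at 20.9, 18.8 and 17.9 CPM in LV-NC and at 12.3, 10.4 and 8.10 CPM in MUCP1-FLAG. The groups did not overlap, but the spread within MUCP1-FLAG was wider than for CDH1. The log2 fold change was −0.90 ± 0.12 (edgeR adjusted p 2.56e-05). In the deposited FPKM values, which are scaled by transcript length and sequencing depth, the fall of CDH3 was smaller, from 7.63 ± 0.29 to 5.23 ± 1.28 (SD, n = 3), or 1.46-fold. The length implied by count and FPKM varied 1.74-fold between libraries for CDH3, and by at most 1.2-fold for any other of the 10 genes. With limma on log2(FPKM + 0.1) CDH3 had −0.57 with an adjusted p of 0.0513, just above the threshold of 0.05. An antisense gene covers 11.1% of the exon bases of CDH3 and another 5.62% of those of CDH1, and neither has a row of its own in the table. Whether counting used strand is unknown, so antisense reads may be included in both counts.

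Per length, the share of CDH1 in the summed FPKM of CDH1 and CDH3 was 46.9%, 51.5% and 45.7% in LV-NC, against 39.0%, 34.0% and 48.3% in MUCP1-FLAG. The groups overlapped, and the means of 48.0% ± 3.05 and 40.4% ± 7.26 did not differ beyond the spread (exact two-sided permutation test, p = 0.3, n = 3 per group). With 3 libraries against 3 this test cannot go below 0.1.

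Of the catenins among the 10 genes, CTNNA1 was the most abundant transcript, at 300.2 ± 12.8 FPKM in LV-NC and 298.9 ± 2.29 FPKM in MUCP1-FLAG. In CPM it was at 1030, 1039 and 999 in LV-NC and at 1057, 1066 and 1053 in MUCP1-FLAG, a change of 0.05 ± 0.04 on the log2 scale (edgeR adjusted p 0.468). The CPM groups did not touch, which held for 33.1% of all tested genes. CTNND1 was at 184, 183 and 184 CPM in LV-NC and at 174, 167 and 171 CPM in MUCP1-FLAG. This small difference, −0.11 ± 0.05, did not pass the adjusted threshold (edgeR adjusted p 0.120), although the groups again did not overlap. Gene counts do not separate splice forms, so the forms of CTNND1 set by ESRP1 were not measured.

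The other adherens junction genes moved in both directions. Of 18 tested genes in a list of 21, 4 rose and 2 fell, with a median log2 fold change of 0.00. Beta-catenin, CTNNB1, rose from 904 ± 24.6 to 1067 ± 22.7 CPM (0.24 ± 0.04, edgeR adjusted p 0.000513). CTNNAL1, an alpha-catenin relative, rose by 0.27 ± 0.04, and AJUBA, a LIM protein that links junctions to actin and also binds SNAI factors, by 0.24 ± 0.07. LIMA1, an actin-binding partner of alpha-catenin, was the fourth, with 0.16 ± 0.05 (edgeR adjusted p 0.0368). NECTIN2, an immunoglobulin-type adhesion molecule of the same junction, fell with −0.38 ± 0.06 (edgeR adjusted p 5.77e-05). Plakoglobin, JUP, the close relative of beta-catenin, fell from 121 ± 10.6 to 104 ± 2.60 CPM (−0.22 ± 0.06, edgeR adjusted p 0.0148). LIMA1 did not pass under 9 of the 14 alternatives, among them upper quartile scaling (adjusted p 0.0575) and every single library left out other than LV-NC replicate 3 (0.0699 to 0.175). JUP did not pass with limma (0.135 and 0.137), nor when LV-NC replicate 2 (0.0663) or replicate 2 of MUCP1-FLAG (0.0766) was left out. AJUBA did not pass when LV-NC replicate 2 (adjusted p 0.0516) or replicate 2 (0.0688) or 3 (0.0951) of MUCP1-FLAG was left out, nor with limma (0.510 and 0.509).

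N-cadherin transcripts were not detected in either group. CDH2, which encodes N-cadherin, had 0 counts in all 6 libraries, which allows up to 3 counts, or 0.129 to 0.173 CPM depending on the library. Of 16 other cadherins 6 were tested, with 1 higher and 1 lower, beside 8.35% higher and 7.71% lower over all tested genes. CDH11, a mesenchymal cadherin, fell from 5.18 ± 0.45 to 3.0 ± 0.11 CPM (−0.79 ± 0.16, edgeR adjusted p 0.00177). CDHR1, a cadherin-related gene best known from photoreceptors, was near the limit of detection, at 0.56 ± 0.24 and 1.29 ± 0.14 CPM (1.18 ± 0.35, edgeR adjusted p 0.0253). The liver-intestine cadherin CDH17 also had 0 counts in every library. CDH11 had an adjusted p of 0.0568 and 0.0603 with limma on log2(FPKM + 1) and log2(FPKM + 0.1). CDHR1 had 0.1 with DESeq2 and 0.0540 to 0.0946 without LV-NC replicate 3 or any of the MUCP1-FLAG libraries.

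EPCAM is a homophilic adhesion molecule of simple epithelia and a common tumour antigen of colon carcinoma. Per length it was the second most abundant of the 10 genes, at 165.4 ± 6.91 FPKM in LV-NC. Its CPM values were 248, 249 and 264 in LV-NC, against 198, 208 and 200 in MUCP1-FLAG. All MUCP1-FLAG libraries lay below all LV-NC libraries, and the change of −0.33 ± 0.05 passed the test (edgeR adjusted p 3.51e-05). EPCAM (ENSG00000119888) lies on chromosome 2 at 47345158 to 47387601.

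A membrane partner of EPCAM also fell, with a larger fold change. CLDN7, a claudin that binds EPCAM, was at 72.1, 68.4 and 67.8 CPM in LV-NC and at 28.5, 32.4 and 30.6 CPM in MUCP1-FLAG (−1.18 ± 0.07, edgeR adjusted p 4.10e-11). Whether its fold change differs from that of EPCAM was not tested. In the list of EPCAM partners and proteases 5 of 15 tested genes were lower and 1 was higher, with a median of −0.09. ST14, which encodes matriptase, a protease that cuts EPCAM, fell with −0.44 ± 0.06, and its inhibitor SPINT2 with −0.16 ± 0.05, a call that was lost in 7 of the 14 alternatives (adjusted p 0.0528 to 0.106), those without LV-NC replicate 1 or 2 or any 1 MUCP1-FLAG library among them. The sheddase genes ADAM10 and ADAM17 had −0.02 ± 0.06 and 0.01 ± 0.06 and did not pass. LEF1, a partner of beta-catenin that also binds the released tail of EPCAM, rose from 73.0 ± 3.24 to 89.4 ± 4.60 CPM (0.29 ± 0.06, edgeR adjusted p 0.00116). In the list of E-cadherin shedding and turnover, 1 of 11 tested genes, the membrane protease MMP14, fell (−0.29 ± 0.05), and none rose. That count is near the 7.71% of all tested genes that were lower.

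Of the pair of epithelial splicing factors, ESRP1 fell and ESRP2 was not called; the difference between their fold changes was not tested across genes. ESRP1 was at 46.5, 46.6 and 47.0 CPM in LV-NC and at 26.0, 23.5 and 26.4 CPM in MUCP1-FLAG. The LV-NC values agreed within 1 CPM and none of the MUCP1-FLAG values came near them. The log2 fold change was −0.89 ± 0.07 (edgeR adjusted p 9.21e-09). ESRP2, its paralogue, was at 26.9, 26.9 and 25.5 CPM in LV-NC and at 25.9, 27.8 and 28.3 CPM in MUCP1-FLAG, so the groups overlapped (0.05 ± 0.07, edgeR adjusted p 0.717). ESRP1 (ENSG00000104413) lies on chromosome 8 at 94641074 to 94707466 and ESRP2 (ENSG00000103067) on chromosome 16 at 68229111 to 68238102.

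Per length, ESRP1 made up 63.8%, 63.7% and 65.8% of the summed FPKM of both factors in LV-NC. In MUCP1-FLAG it made up 50.6%, 46.0% and 48.6%. The share thus went from 64.4% ± 1.18 to 48.4% ± 2.34, a difference of −16.1 percentage points with no overlap. The exact two-sided permutation test gave p = 0.1 with n = 3 per group, the smallest p that 3 libraries against 3 allow.

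Among 15 host genes of exons known to be regulated by ESRP proteins, all tested, 2 fell and none rose. ENAH, an actin regulator with an epithelial and a mesenchymal form, fell with −0.25 ± 0.06. FGFR2, at 5.97 ± 0.16 and 7.43 ± 0.38 CPM, did not pass (0.31 ± 0.13, edgeR adjusted p 0.0969), nor did CD44 (−0.09 ± 0.04, edgeR adjusted p 0.163). These are sums over all splice forms. Of 13 tested other splicing regulators of the epithelial-mesenchymal shift, SRSF1 (0.33 ± 0.05) and HNRNPM (0.16 ± 0.04) rose, and none fell. Beside the counts of both lists, 7.71% of all tested genes were lower and 8.35% higher. ENAH did not pass with limma on FPKM (adjusted p 0.252 and 0.251), and HNRNPM not with limma (0.0652 and 0.0648) or without LV-NC replicate 2 (0.0702), MUCP1-FLAG replicate 2 (0.0694) or MUCP1-FLAG replicate 3 (0.0761).

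**Figure D2:**
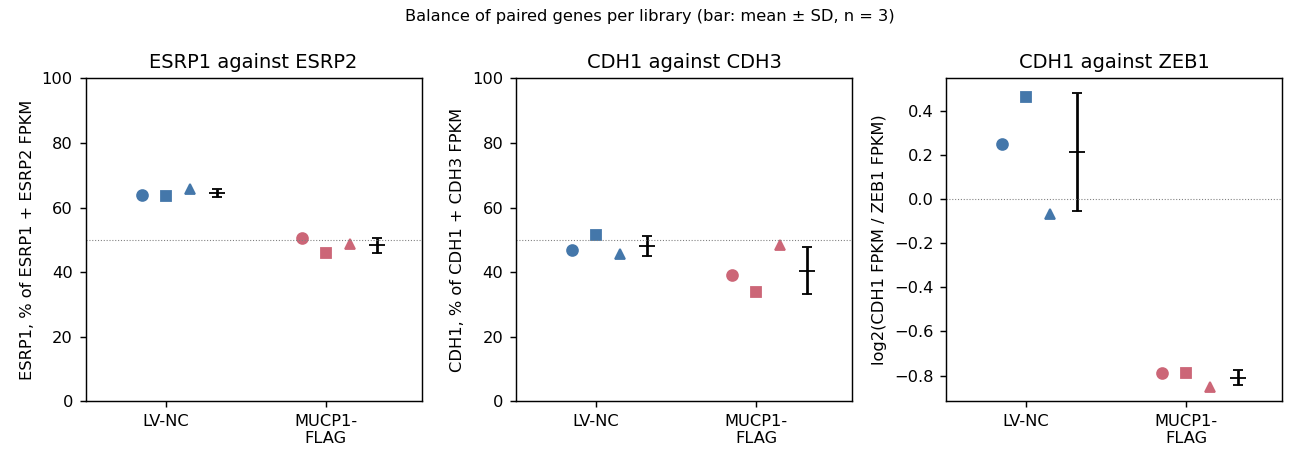
Each point is 1 library and the bars are mean ± SD of 3 libraries. The left and middle panels give the percentage of ESRP1 in ESRP1 plus ESRP2 FPKM and of CDH1 in CDH1 plus CDH3 FPKM, and the right panel the log2 ratio of CDH1 to ZEB1 FPKM. The groups part in the left and right panels and overlap in the middle one.

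No repressor was called higher. ZEB1 was at 22.9, 26.7 and 32.4 CPM in LV-NC and at 27.8, 28.8 and 30.7 CPM in MUCP1-FLAG. LV-NC spanned the whole range of MUCP1-FLAG, and the log2 fold change was 0.09 ± 0.10 (edgeR adjusted p 0.583). Without LV-NC replicate 3, the library with the highest ZEB1, the value was 0.23 with an edgeR adjusted p of 0.0487. In FPKM the means were 6.11 ± 0.81 and 6.07 ± 0.41. SNAI1 was the least abundant of the 10 genes, with 31 to 60 counts per library. It was at 3.13, 1.53 and 1.62 CPM in LV-NC and at 3.07, 2.61 and 2.31 CPM in MUCP1-FLAG, and LV-NC replicate 1 was as high as any MUCP1-FLAG library. Its change of 0.35 ± 0.26 did not pass (edgeR adjusted p 0.400). Without LV-NC replicate 1 the value was 0.75 (edgeR adjusted p 0.0509), without LV-NC replicate 2 it was 0.16 (0.790) and without LV-NC replicate 3 it was 0.20 (0.665).

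SNAI2, which encodes the repressor SLUG, was the repressor that was called, and it was lower. Its levels were 15.3, 17.2 and 17.8 CPM in LV-NC and 13.7, 14.5 and 13.1 CPM in MUCP1-FLAG. The groups lay close without overlap (−0.28 ± 0.09, edgeR adjusted p 0.0414). That call was lost with DESeq2 (adjusted p 0.129), with limma on log2(FPKM + 1) (0.358) and in 5 of the 6 fits that leave out a library, LV-NC replicate 1 being the exception (0.0628 to 0.170). In the authors' deposited table CDH1, CDH3, ESRP1 and EPCAM had an adjusted p under 0.05 and SNAI2 had 0.163. The deposited unadjusted p-values of the 10 genes equal those of the DESeq2 fit to the deposited counts, so that table is no further check. That table called 7.50% of its genes in either direction.

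**Figure D3:**
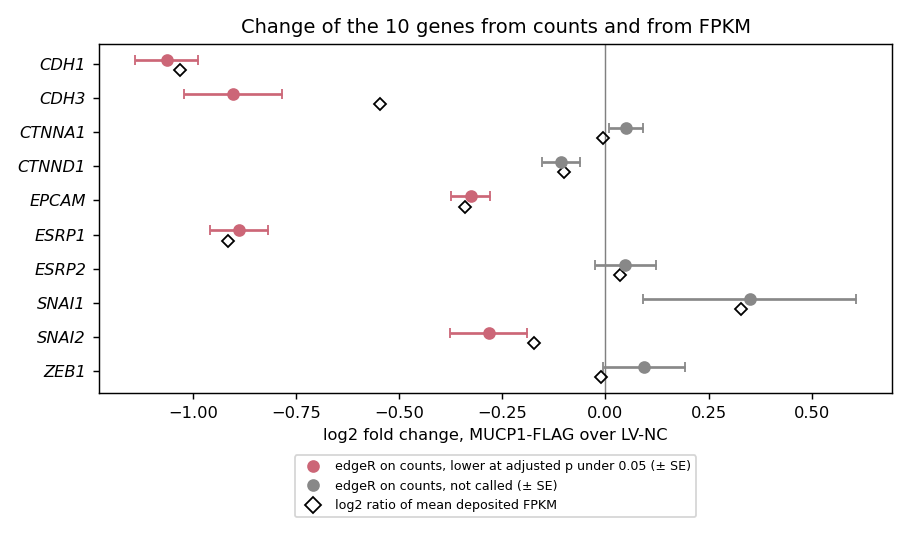
The horizontal axis is the log2 fold change of MUCP1-FLAG over LV-NC. Filled points are edgeR estimates from counts with their standard error, in red where lower at an adjusted p under 0.05, and open diamonds are log2 ratios of the mean deposited FPKM. Counts and FPKM differ most for CDH3, at −0.90 and −0.55.

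Per length, the mean levels in LV-NC went from ESRP1 at 14.4 FPKM to ESRP2 at 7.93, SNAI2 at 7.88, CDH3 at 7.63, CDH1 at 7.08 and ZEB1 at 6.11 FPKM. Each neighbouring pair from ESRP2 to ZEB1 overlapped between libraries. The order of CDH3 and CDH1 was the reverse in CPM, with CDH1 above CDH3 in every LV-NC library. ESRP1 lay above the other 5 in every LV-NC library, and ZEB1 lay wholly below ESRP2, SNAI2 and CDH3.

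The log2 ratio of CDH1 to ZEB1 in FPKM was 0.25, 0.46 and −0.07 in LV-NC, against −0.79, −0.79 and −0.85 in MUCP1-FLAG. CDH1 thus stood near the level of ZEB1 in LV-NC and below it in every MUCP1-FLAG library. The means, 0.21 ± 0.27 and −0.81 ± 0.04, differed by −1.02 (exact two-sided permutation test, p = 0.1, the smallest possible, n = 3 per group).

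Other factors of the epithelial-mesenchymal shift gave 2 higher and no lower genes among 7 tested. Those that passed were RUNX2, a runt factor, from 74.1 ± 3.79 to 101 ± 2.54 CPM (0.45 ± 0.06, edgeR adjusted p 7.09e-06), and LEF1. Upper quartile scaling, no filter, the stricter filter, the replicate block and leaving out LV-NC replicate 3 each gave 2 higher and 1 lower. Leaving out LV-NC replicate 1 gave 3 higher and 0 lower. ZEB2 and TWIST1 had 0 counts in all 6 libraries, under the same limit of 3 counts. Of 16 cofactors and turnover factors of the repressors, 2 rose and none fell. EZH2, the histone methyltransferase of the Polycomb complex, rose with 0.32 ± 0.05 beside AJUBA. Over the alternatives 1 to 3 of the 16 were higher. Upper quartile scaling, the stricter filter and leaving out LV-NC replicate 1 or 3 each gave 1 lower. Beside the counts of both lists, 8.35% of all tested genes were higher and 7.71% lower. The corepressors CTBP1 and CTBP2, which ZEB1 recruits, had 0.05 ± 0.06 and 0.05 ± 0.05 and did not pass.

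Of 12 tested epithelial transcription factors in a list of 18, 5 were lower, none was higher and 7 did not pass. Their median was −0.31 on the log2 scale. The lower genes numbered 3 of 10 tested with limma on either FPKM scale and 3 of 12 without MUCP1-FLAG replicate 3. They numbered 4 without LV-NC replicate 2, and 6 with upper quartile scaling or without LV-NC replicate 3. KLF4, a factor of differentiated gut epithelium, fell from 24.7 ± 1.13 to 16.9 ± 0.93 CPM (−0.55 ± 0.08, edgeR adjusted p 7.09e-05). TFCP2L1, of the grainyhead-related family, fell with −0.33 ± 0.08, KLF5 with −0.21 ± 0.05 and ELF3, an epithelial ETS factor, with −0.70 ± 0.19. CDX2, the intestinal homeobox factor, had −0.03 ± 0.09 and did not pass, and GRHL2 had 0 counts in all libraries. ELF3 did not pass with limma (adjusted p 0.244 and 0.253) or when LV-NC replicate 1 (0.0641) or replicate 3 of MUCP1-FLAG (0.0851) was left out. TFCP2L1 did not pass with limma (adjusted p 0.107 at a pseudocount of 1, 0.110 at 0.1). KLF5 did not pass when LV-NC replicate 2 (0.0593) or replicate 3 of MUCP1-FLAG (0.0842) was left out.

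A list of 28 epithelial genes, drawn up from general knowledge around repression by ZEB1, holds CDH1, EPCAM, ESRP1 and ESRP2 themselves. Of its 25 tested genes 19 were lower and none higher. Leaving out those 4, 16 of 21 were lower, with a median of −0.46. The count of 19 was 18 to 20 under the other scalings, filters and tools and with any single library left out. CLDN7, CDH1, ESRP1 and MAL2, a protein of apical transport, had the smallest adjusted p. MAL2 fell from 133 ± 13.0 to 81.4 ± 4.02 CPM (−0.71 ± 0.06, edgeR adjusted p 1.57e-07). The list was chosen by a model that had read earlier results of these data, AP1M2 and the fall of epithelial genes among them, so its direction is no independent evidence.

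**Figure D4:**
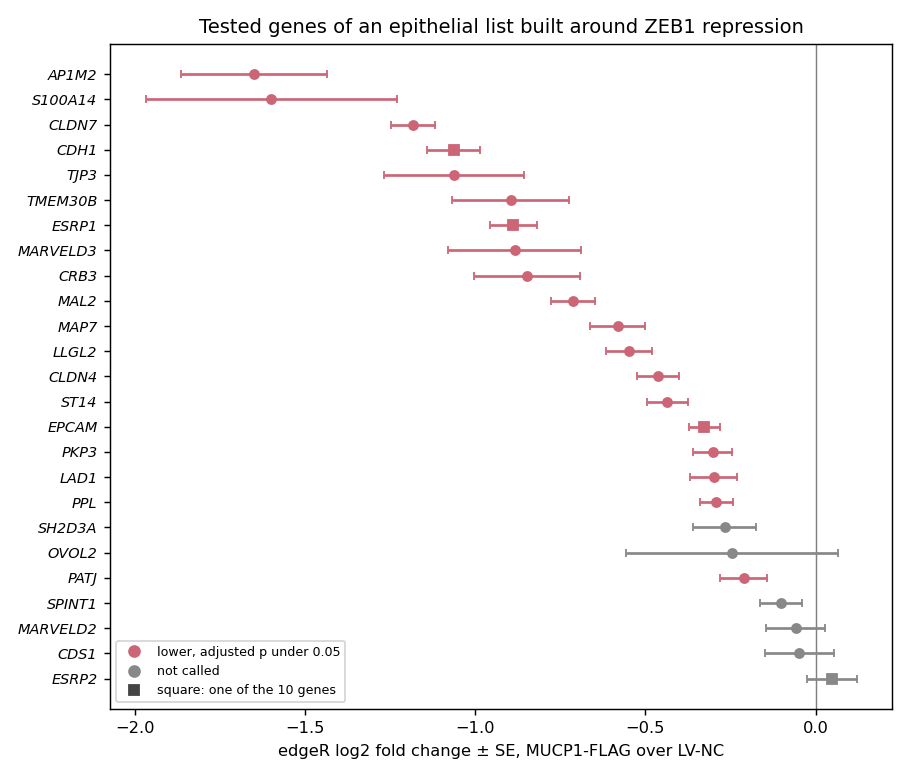
The horizontal axis is the edgeR log2 fold change ± SE of MUCP1-FLAG over LV-NC, and each row is 1 of the 25 tested genes of the list. Red points are lower at an adjusted p under 0.05, grey points were not called and squares are genes of the set of 10. Every called gene lies left of 0, and ESRP2 is the gene with a positive value.

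The E-box core CAGGTG, which ZEB and SNAI factors bind, was searched on both strands (CACCTG on the other) in RefSeq promoter windows of 300 bases, 250 before to 50 after a gene's start, on GRCh38.p14. Such windows were found for 15 of the 28 genes of the list. An E-box was present in at least 1 window of 12 of these 15 genes (80.0%), beside 24.1% of all 27305 genes with windows. Windows with 3 or more E-boxes belonged to 5 of the 15 genes (33.3%), beside 0.76% of all genes. Those 5 are CLDN7, CRB3, TMEM30B, AP1M2 and PATJ, all called lower, PATJ with the least margin. The limit of 3 was chosen after these windows had been seen. Of the 10 genes with windows that were called lower, 9 held an E-box, as did 3 of the 5 not called lower. Among those 3 is RAB25, which had 0 counts in all 6 libraries and was not tested. The list was drawn up around repression by ZEB1, a factor that binds E-boxes, so its E-box shares are no independent evidence. Of the 10 genes at the centre, CTNNA1 and ZEB1 had windows. ZEB1 had 3 E-boxes in 1 of its 7 windows and CTNNA1 had none in 4. The windows with 3 or more are printed 5′ to 3′ on the gene's strand, E-boxes in capitals, because they show how densely the repressor's binding word can be packed at these starts.
CLDN7, chr17:7262429-7262728, - strand: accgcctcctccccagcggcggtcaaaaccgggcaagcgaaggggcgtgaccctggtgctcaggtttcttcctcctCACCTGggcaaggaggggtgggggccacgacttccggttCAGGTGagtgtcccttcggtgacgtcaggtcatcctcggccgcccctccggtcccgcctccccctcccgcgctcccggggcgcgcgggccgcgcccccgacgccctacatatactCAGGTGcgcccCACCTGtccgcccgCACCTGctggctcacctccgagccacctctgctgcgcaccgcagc
CRB3, chr19:6464021-6464320, + strand: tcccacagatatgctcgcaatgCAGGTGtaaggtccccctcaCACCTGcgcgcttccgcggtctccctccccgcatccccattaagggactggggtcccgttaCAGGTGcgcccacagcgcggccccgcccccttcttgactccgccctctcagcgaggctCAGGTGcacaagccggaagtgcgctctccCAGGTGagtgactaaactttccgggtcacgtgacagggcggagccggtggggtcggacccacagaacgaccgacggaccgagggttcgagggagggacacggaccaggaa
TMEM30B, chr14:61281289-61281588, - strand: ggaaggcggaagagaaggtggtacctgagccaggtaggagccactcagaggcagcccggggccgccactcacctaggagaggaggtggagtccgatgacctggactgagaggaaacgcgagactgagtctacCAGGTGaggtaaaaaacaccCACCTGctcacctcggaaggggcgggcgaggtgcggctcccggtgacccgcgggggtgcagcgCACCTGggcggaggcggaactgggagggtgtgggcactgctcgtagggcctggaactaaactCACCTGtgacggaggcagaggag
AP1M2, chr19:10587263-10587562, - strand: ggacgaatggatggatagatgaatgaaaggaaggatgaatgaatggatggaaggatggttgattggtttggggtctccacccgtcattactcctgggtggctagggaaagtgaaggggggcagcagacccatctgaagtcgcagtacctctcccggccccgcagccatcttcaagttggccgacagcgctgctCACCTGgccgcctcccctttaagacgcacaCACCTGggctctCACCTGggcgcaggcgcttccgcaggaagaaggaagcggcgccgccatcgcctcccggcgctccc
PATJ, chr1:61742230-61742529, + strand: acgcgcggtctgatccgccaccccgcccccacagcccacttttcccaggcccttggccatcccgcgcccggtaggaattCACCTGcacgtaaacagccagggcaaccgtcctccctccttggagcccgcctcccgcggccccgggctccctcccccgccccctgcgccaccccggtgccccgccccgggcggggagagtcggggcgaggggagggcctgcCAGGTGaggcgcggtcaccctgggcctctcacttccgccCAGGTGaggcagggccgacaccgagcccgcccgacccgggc
ZEB1, chr10:31318966-31319265, + strand: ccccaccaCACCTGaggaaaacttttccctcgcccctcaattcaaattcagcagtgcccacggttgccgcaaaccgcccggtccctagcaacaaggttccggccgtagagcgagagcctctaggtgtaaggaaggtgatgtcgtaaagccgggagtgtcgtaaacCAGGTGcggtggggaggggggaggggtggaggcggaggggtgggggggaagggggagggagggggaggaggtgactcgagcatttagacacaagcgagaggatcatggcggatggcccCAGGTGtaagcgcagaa
A match is a run of letters and not a bound site, and binding was not measured. In CLDN7 the E-boxes begin 174, 135, 20 and 9 bases before the start and at base 6 after it. In AP1M2 all 3 lie within 57 bases before the start. CRB3, a small membrane protein of the apical Crumbs complex, was at 6.10 ± 0.76 and 3.38 ± 0.07 CPM (−0.85 ± 0.16, edgeR adjusted p 0.000623). PATJ, its scaffold partner, was at 38.8 ± 2.53 and 33.6 ± 0.62 CPM (−0.21 ± 0.07, edgeR adjusted p 0.0423), and was not called under 9 of the 14 alternatives, every single library left out other than LV-NC replicate 1 among them (0.0909 to 0.142). TMEM30B, a flippase subunit, had −0.90 ± 0.17 and AP1M2, the epithelial clathrin adaptor subunit, −1.65 ± 0.21. These 4 genes were singled out by their windows after their values had been seen.

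Mesenchymal markers were mixed. Of 9 tested genes in a list of 18, 4 rose and 2 fell. The matrix protein fibronectin, FN1, rose from 117 ± 10.8 to 183 ± 15 CPM (0.65 ± 0.07, edgeR adjusted p 5.83e-06), the calcium-binding protein S100A4 with 0.40 ± 0.05, ACTA2 with 0.53 ± 0.16 and vimentin, VIM, with 0.17 ± 0.04. TAGLN, an actin-binding protein of smooth muscle, fell with −0.48 ± 0.08, beside CDH11. ACTA2 did not pass with DESeq2 (adjusted p 0.110) or without LV-NC replicate 2 or 3 or MUCP1-FLAG replicate 2 or 3 (0.0595 to 0.165). VIM did not pass with limma (0.0540 and 0.0548) or without MUCP1-FLAG replicate 2 (0.0577) or 3 (0.0697). SW480 is known to express vimentin, and VIM was already at 805 ± 28.5 CPM in LV-NC.

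The genes whose profile over the 6 libraries came closest to that of CDH1, by the root mean square difference of centred log2 CPM, were LAMA3 (0.07), KCNA2 (0.08), CLDN7 (0.09), EREG (0.09) and EGR2 (0.09), out of 11530 genes. LAMA3, a laminin chain of the epithelial basement membrane, was at 268 ± 5.97 and 130 ± 9.73 CPM. For CDH3 they were the histone gene H2BC5 (0.07), SERPINA3 (0.09), the hair keratin-associated gene KRTAP2-3 (0.10), BCL3 (0.11) and TXNIP (0.12). The 6 libraries of 2 groups share their group difference, so this likeness is a description.

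The label of colon adenocarcinoma cells was set against markers. The keratins KRT8, KRT18 and KRT19 were high, with KRT8 at 3615 ± 208 CPM in LV-NC and 3687 ± 40.0 CPM with MUCP1-FLAG, while CDX1, CDH17 and LGALS4 of the colon list had 0 counts in all 6 libraries. Of the 13 colon markers 7 were tested. KRT19 rose (0.17 ± 0.05) and VIL1, the brush border villin (−0.40 ± 0.10), fell beside EPCAM. Neither held under all alternatives: KRT19 had an adjusted p of 0.0533 to 0.189 in 5 of the 6 fits that leave out a library, LV-NC replicate 1 being the exception, and VIL1 had 0.279 with limma on log2(FPKM + 1). Of 9 fibroblast markers 5 had 0 counts in all libraries, and their summed level was 1.02 to 1.30 CPM in LV-NC and 0.75 to 1.09 in MUCP1-FLAG. The leukocyte gene PTPRC and the endothelial genes PECAM1, CDH5 and KDR had 0 counts in every library. The summed blood markers were at 4.64 to 5.42 and 4.99 to 6.18 CPM, and the endothelial markers at 2.41 to 3.40 and 2.26 to 4.23 CPM. No gene of these 3 lists was called by edgeR or DESeq2, and 0 of their tested genes had an unadjusted edgeR p under 0.05.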

How the data were processed

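mRNA of 3 LV-NC and 3 MUCP1-FLAG libraries of SW480 cells was sequenced. The authors deposited whole-number counts and FPKM values per gene and library, with group mean FPKM, a log2 fold change, a p-value and an adjusted p-value of their own comparison. For the 10 genes the deposited log2 fold change equals the log2 ratio of the mean FPKM. Of tools and builds, the notes of the submitters list fastp, HISAT2, featureCounts, DESeq2 and GRCh38, without versions or roles. The authors' unadjusted p-values of the 10 genes equal those of DESeq2 run here on the deposited counts.

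Counts were tested with edgeR 4.0.16 in R 4.3.3 (robust quasi-likelihood F test, TMM, filterByExpr with a minimum count of 10, Benjamini-Hochberg adjustment, threshold 0.05). Fits were also run on simulated counts with the same relative spread for every gene, a simpler setting than these data. Alternatives were RLE and upper quartile scaling, DESeq2 1.42.0, no filter, at least 1 CPM in every library of a group, limma 3.58.1 on log2(FPKM + 1) and log2(FPKM + 0.1) for genes with a mean of at least 0.5 FPKM, a replicate block and leaving out each library. Shares and ratios of FPKM were compared by exact permutation tests. The length implied by a count and its FPKM was taken relative to each library's total. Reads of overlapping genes cannot be assigned, since the strand setting is unknown. Counts of each pair of libraries of a group differed by more than sampling noise.

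The 10 genes and the lists were chosen with earlier results of these data known. Named from each list were the up to 4 called genes with the smallest adjusted p, or, with none called, the 2 with the smallest p. Genes most like a member were sought for the 2 called members with the largest change, among genes of at least 2 CPM. Other genes were named after their values were seen. COL1A1, CD8A, HBA1 and VWF, named by the rule from marker lists, had adjusted p of 0.916, 0.344, 0.220 and 0.827 in edgeR. Promoter sequences are from RefSeq. Some genes that the rule names are not reported here.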

Additional observations from a re-analysis of the deposited data

How the results depend on the processing

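CDH1, ESRP1 and EPCAM kept their direction and their call under all 14 alternatives, with log2 fold changes of −1.08 to −0.85, −0.92 to −0.83 and −0.35 to −0.30. CTNNA1, CTNND1, ESRP2 and SNAI1 were called under none of the 14. With limma on log2(FPKM + 0.1) the number of lower genes among the 10 was 3, since CDH3 had −0.57 (adjusted p 0.0513) and SNAI2 −0.17. SNAI2 had −0.28 with DESeq2 and −0.15 with limma on log2(FPKM + 1), none of them called. Leaving out single libraries gave −0.34 to −0.24 for SNAI2, 4 to 5 lower genes among the 10, and −0.015 to 0.23 for ZEB1. The number of higher genes among the 10 was 0 to 1, the 1 being ZEB1 without LV-NC replicate 3. Over all tested genes limma gave 532 higher and 555 lower on log2(FPKM + 1) and 527 and 548 on log2(FPKM + 0.1), and with single libraries left out the numbers were 639 to 1323 higher and 624 to 1213 lower. With the replicate block 1005 genes were higher and 954 lower, 5 of the 10 genes were lower, and no call among the 10 changed. The labels do not say whether same-numbered libraries shared a culture. Deviations of same-numbered libraries from their group means correlated at 0.04, 0.05 and 0.00 over 12920 genes. Differently numbered libraries gave −0.05 to 0.01. Sampling noise pulls such correlations towards 0, so they cannot tell whether cultures were shared. For SNAI2 and ZEB1 the cause of the changed calls was not tested. SNAI1 had 31 to 60 counts per library, the fewest of the 10 genes, and ranged from 0.16 to 0.75 with single libraries left out.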

Other observations

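Over all tested genes with a RefSeq promoter window, 24.4% of 10299 held the E-box core CAGGTG on either strand in at least 1 window. The share was 30.8% among the 769 genes that were lower in MUCP1-FLAG and 21.9% among the 863 that were higher. Genes with 3 or more E-boxes in a window numbered 60, of which 17 were lower and 1 was higher. They made up 2.21% of the lower, 0.12% of the higher and 0.58% of all tested genes with a window. The limit of 3 was chosen after the windows of the ZEB1 list had been seen, and 5 of the 17 belong to that list. The other 12 were MACC1, FA2H, PADI2, MAPK13, MCF2L, ADAP1, ARHGEF16, MISP, MAN2A2, BAIAP2L1, NEDD4L and COG5, with a median log2 fold change of −0.40. MACC1, a gene first described in metastatic colon cancer, had −1.70 ± 0.33 (edgeR adjusted p 0.000941), and the p38 kinase gene MAPK13 had −0.50 ± 0.06 (edgeR adjusted p 3.38e-06). The higher gene was CTNS, the lysosomal cystine carrier, with 0.27 ± 0.08 (edgeR adjusted p 0.0280). Base composition and gene length also vary between promoters and were not matched, and no test was made of these shares.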
